A study of Homo sapiens with 16 samples.

Results

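Ribosomal proteins build the ribosome, and the elongation factors eEF1A and eEF2 carry it along an mRNA. Peaks were counted here in the genes of 8 ribosomal proteins (RPLP0, RPS6, RPL3, RPS3, RPS2, RPL5, RPL11 and RPL4) and 2 elongation factors (EEF1A1 and EEF2), 10 genes in all. A peak is a genomic interval that the authors' caller marked as enriched in reads. A peak belonged to a gene if it overlapped the gene's hg19 window by at least 1 bp on the same strand. The 10 windows held 86 of the 175749 peaks in 8 lists, and these joined into 16 of 36802 regions. A region is a set of peaks from any list that overlap on the same strand.

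The mRNAs of these proteins are abundant in growing cells and typically begin with a C followed by a run of pyrimidines, the terminal oligopyrimidine (TOP) element. Their translation is switched through this element by the kinase mTOR and the RNA-binding protein LARP1, which also contacts poly(A)-binding protein. PABPC1, the protein precipitated in this study, binds poly(A) tails and is itself made from a TOP mRNA.

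The study measured RNA bound to Myc-tagged PABPC1 by RNA immunoprecipitation and sequencing in the established human lung carcinoma line H1299. Its cells stably expressed tagged PABPC1 that was wild type (WT) or carried K512R, in which an arginine takes the place of a lysine. The cells received 500 µM sodium arsenite (AS), an oxidative stressor, or none. The labels do not say whether the cells' own PABPC1 was removed, nor whether the replicates were separate cultures, so their spread may be technical.

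Each of 4 conditions has 2 of the 8 lists, and for 3 of these pairs the sample's record goes against the name of its list. Pair C is the immunoprecipitate (IP) of AS-treated WT cells by the record, and its lists are named for K512R without treatment. Pair A is the IP of untreated WT cells by the record, and its lists are also named for WT without treatment. Pair D is input RNA, taken before precipitation, of AS-treated WT cells by the record, and its lists are named for K512R with AS. Pair B is input RNA of WT cells without treatment by the record, and its lists are named for WT with AS. In the record's order the pairs run A, B, C and D. Their lists are named, in that order, for WT, WT with AS, K512R and K512R with AS. By the record, none of the lists comes from the 8 samples titled K512R, and D and B hold peaks called in input RNA. Which reading is right was not settled, so pairs are called by letter and the lists C1, C2 and so on. Setting A and C against B and D compares IP with input by the record, and no AS with AS by the names. Setting C and D against A and B compares AS with no AS by the record, and K512R with WT by the names. The lists held 19953 to 25111 peaks each. They give no counts, so read depth is unknown, and they name no genes, so the identity of the cells was not checked.

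The starts of 8 of the 10 genes were in RefSeq's promoter table (GRCh38.p14, another build than that of the peaks), and those of RPS2 and RPL5 are named only. The sequences are shown because the pyrimidine start is the known feature of such mRNAs and was not used to choose them. Each line gives 10 bases before and 20 bases from the annotated start, 5′ to 3′. Capitals mark a run of C and T read downstream from the C that lies nearest to that start, at most 5 bases away, among those followed by at least 4 pyrimidines. Pyrimidines before this C are not counted in the run. For RPL11 the second of its annotated starts is shown. The first is an A, and its run of 5 bases begins 4 bases after it.
EEF1A1 (chr6:73521013-73521042, minus strand): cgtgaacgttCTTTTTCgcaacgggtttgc
EEF2 (chr19:3985444-3985473, minus strand): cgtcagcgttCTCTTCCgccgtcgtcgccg
RPS6 (chr9:19380217-19380246, minus strand): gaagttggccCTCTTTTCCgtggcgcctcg
RPL11 (chr1:23691796-23691825, plus strand): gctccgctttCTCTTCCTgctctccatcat
RPS3 (chr11:75399508-75399537, plus strand): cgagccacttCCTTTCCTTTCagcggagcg
RPLP0 (chr12:120201092-120201121, minus strand): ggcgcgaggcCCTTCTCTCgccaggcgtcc
RPL4 (chr15:66504836-66504865, minus strand): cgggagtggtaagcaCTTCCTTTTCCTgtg
RPL3 (chr22:39319604-39319633, minus strand): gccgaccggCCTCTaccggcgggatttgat

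In 6 of these 8 genes an annotated start was itself such a C, and the run read from it was 7 bases in EEF1A1 and EEF2, 8 in RPL11, 9 in RPS6 and RPLP0 and 11 in RPS3. Counted by starts, with both of RPL11, this was 6 of 9. Of all 35116 starts in the table, 4.07% had such a run read from the start itself. In the 6 genes the bases just before the run were also pyrimidines, 1 in RPLP0, 2 in EEF1A1, EEF2 and RPS6, 3 in RPS3 and 4 in RPL11, so the unbroken stretch of C and T is longer than the capitals there. In RPL4 the run of 12 bases began 5 bases after the annotated start. In RPL3 it had 5 bases and began 1 base before it. When a run could begin within 5 bases of the start, all 8 genes and all 9 of their starts had one, as did 21.1% of all starts. A run is a match of letters only. The genes shown include 2 whose peaks differed between the sets of lists, 3 with peaks in most lists and 3 with no peak. A run within 5 bases of the start was thus present in all genes of each kind. Where the start itself had to be such a C, the genes that lacked one were RPL3 and RPL4, both without a peak.

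Peaks were found in 6 of the 10 genes. RPLP0, the stalk protein of the large subunit, RPL3 and RPL4, proteins of the large subunit, and RPS2, a protein of the small subunit, had no peak in any of the 8 lists. The nearest peak on the same strand outside the window lay 9.20 to 20.4 kb from RPLP0, 17.2 to 18.8 kb from RPS2, 68.6 to 519 kb from RPL3 and 142 to 899 kb from RPL4, depending on the list. No list had a peak on the opposite strand of any of the 10 windows. A missing peak does not show that an mRNA was absent, since the lists cannot tell little RNA from a signal under the caller's threshold. The 12 pseudogenes that RefSeq names after RPLP0, 13 after RPL3, 55 after RPS2 and 7 after RPL4 can share reads with the genes. Pseudogenes are also named after members with peaks, 50 after EEF1A1, 35 after RPL5, 26 after RPS6, 7 after RPS3 and 5 after RPL11, but none after EEF2. No source used here states how reads that match several places were counted, and its part in these results was not tested.

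The peaks of the 6 genes were strong and wide for their lists. Scores reached 3100 or more in 72 of the 86 peaks (83.7%), against 9.53% of all peaks, and since 3100 is a value that many peaks share, these are not ranked among themselves. The score is the authors' own, its unit is not stated, and it serves here only for ranks inside a single list. The median width was 556 bp for the 86 peaks and 188 bp for all peaks. Of the 14 peaks with a lower score, 12 lay in RPS3, 1 in EEF1A1 and 1 in EEF2.

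**Figure D1:**
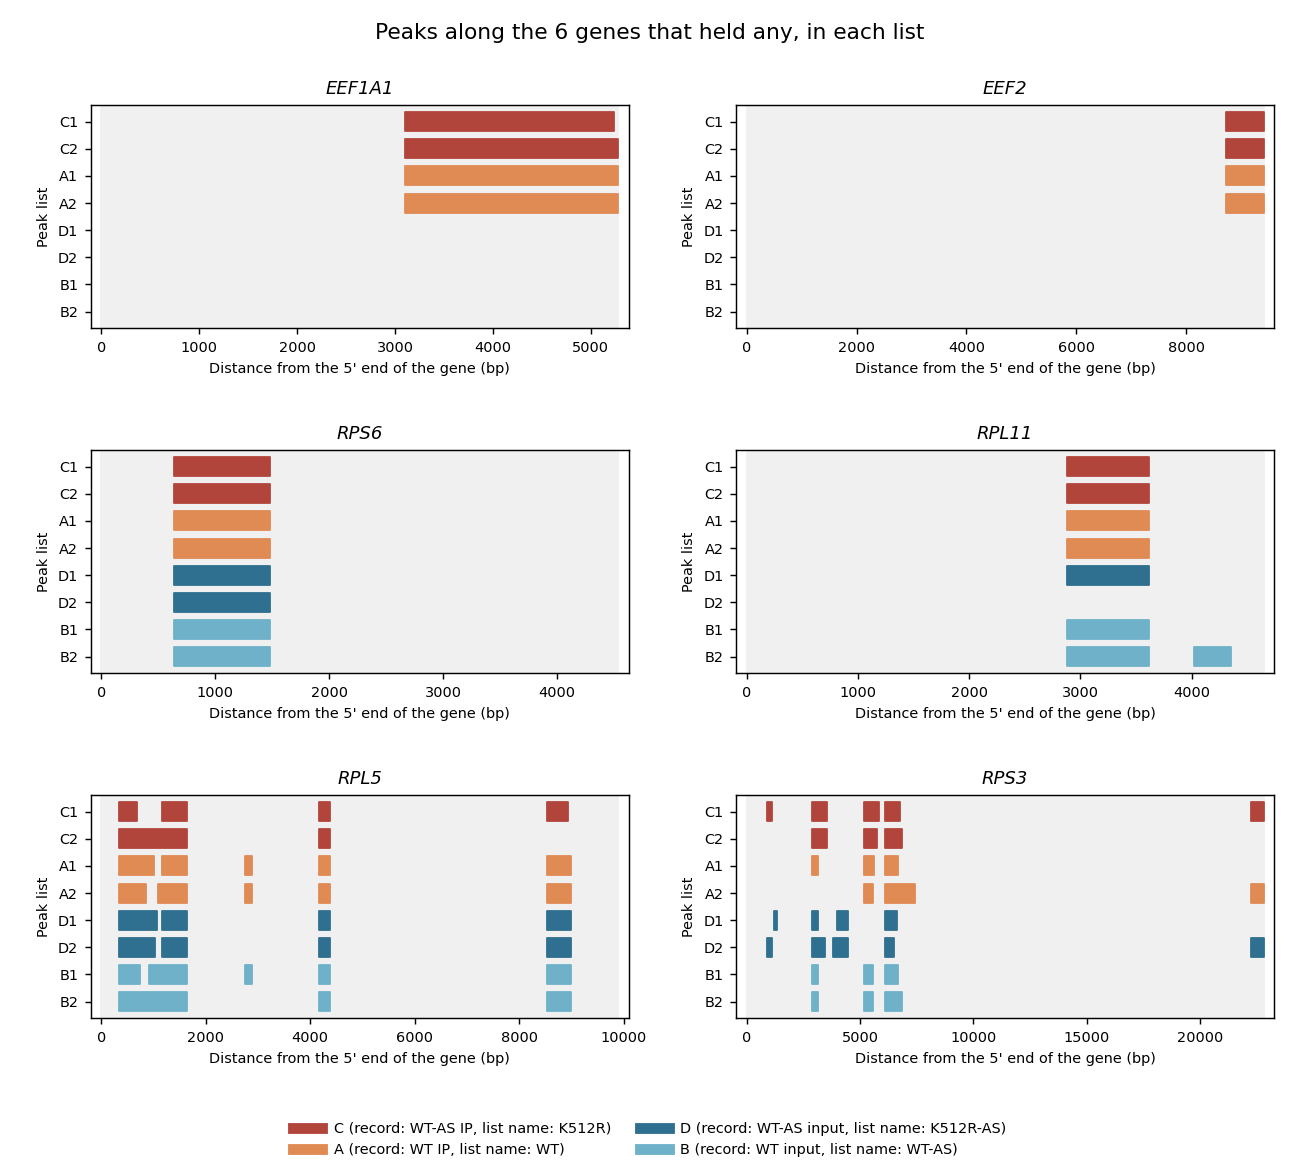
Peaks along the 6 genes that held any, with distance from the 5′ end of the gene window in bp on the horizontal axis and 1 row per list, pairs C and A above D and B. Bars are peaks and the grey field is the window. EEF1A1 and EEF2 have peaks in the 4 rows of C and A alone, RPS6 has the same peak in all 8 rows, and RPS3 has a different set in D.

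EEF1A1 and EEF2 were the 2 genes whose peaks separated the lists of A and C from those of B and D. EEF1A1 encodes eEF1A1, which brings aminoacyl-tRNA to the ribosome. Its peak, at chr6:74225473-74227657 (hg19, minus strand), covered 41.4% of the window in C2, A1 and A2 and ended exactly at the gene's annotated 3′ end. It covered 2135 and 2185 bp in C1 and C2 and 2185 bp in both lists of A, against 0 bp in all 4 lists of D and B. The 5′ end of the peak was the same in all 4 lists, and its 3′ end was 50 bp short of the gene's end in C1. The mean was 2172.5 ± 25.0 bp over the 4 lists of A and C and 0 ± 0 bp over the other 4 (SD).

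EEF2 encodes eEF2, which moves the ribosome along the mRNA by a codon. Its peak, at chr19:3976054-3976745 (hg19, minus strand), covered the last 692 bp of the window, from 92.7% of its length to its annotated 3′ end. Both ends were the same in C1, C2, A1 and A2, and D and B had no peak. For each of these genes the 4 lists of A and C thus did not overlap the 4 of B and D. Their own scores were less uniform. EEF1A1 had a score of 3100 in C1 and C2, 3217.62 in A1 and 115.68 in A2. EEF2 had a score of 3100 in C1, C2 and A2 and 1330.7 in A1.

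Over all regions, an exact 2-sided permutation test of covered length, with 4 lists against 4, was run in each region and adjusted over all 36802 (Benjamini-Hochberg). EEF1A1 and EEF2 had p = 0.0286, the smallest that this exact test can give, and an adjusted p of 0.308. No region of the genome passed 0.05 after adjustment, while 3417 (9.28%) had an unadjusted p under 0.05. A region could pass only if far more regions than these 3417 shared the smallest p, however large its own difference. The absence of a call therefore does not show an absence of difference. Of the 16 regions of the 10 genes, 2 had an unadjusted p under 0.05. Covered length was higher in every list of A and C than in every list of B and D in these 2 of 16 regions and in 5.98% of all regions. The opposite held in 0 of 16 and in 3.3% of all regions. With C and D set against A and B, covered length was higher in every list in 0 of 16 regions and in 0.163% of all regions, and lower in 0 of 16 and in 0.223% of all regions. In that contrast 0 of 16 regions had an unadjusted p under 0.05 in the exact permutation test, against 142 of all regions. None passed after adjustment, under the same limit. The 8 lists enter the test as if independent, and no exact test over the 4 pairs could pass 0.05.

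Regions present in all lists of A and C and absent from all lists of B and D numbered 1875 (5.09% of all). Among these, the regions of EEF1A1 and EEF2 were wide, and their poorest scores ranked above the median of the set. The EEF1A1 region had a mean width of 2172.5 bp, and 124 of the 1875 were wider. The EEF2 region had 692 bp, and 424 were wider. The median width of the 1875 was 199 bp. The poorest score of EEF2 in the 4 lists stood at the 83.8 percentile of its list and that of EEF1A1 at the 43.5 percentile, against a median of 23.1 over the 1875 regions. The poorest EEF1A1 peak, in A2, thus scored below the median of its own list. These regions were set side by side as a description, and the widths of regions that were chosen by presence have no test.

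**Figure D2:**
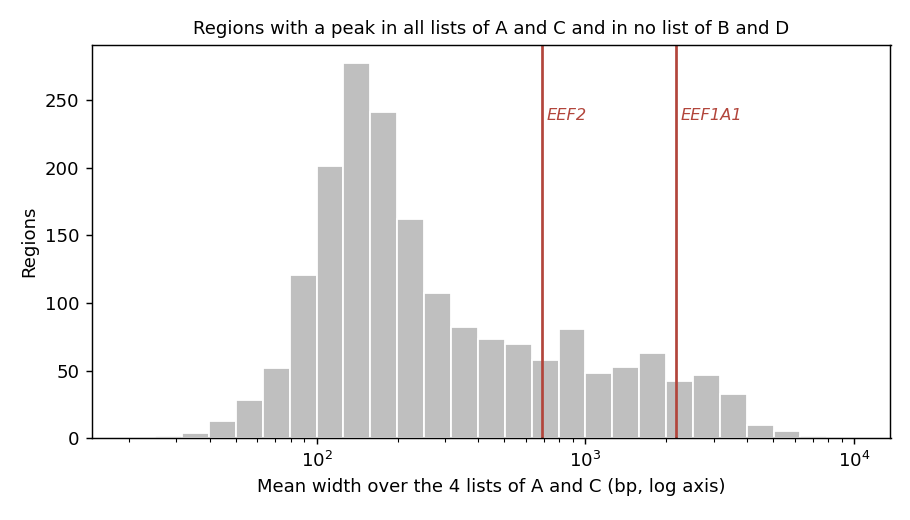
Number of regions (vertical axis) by mean width in bp (log axis) among the 1875 with a peak in all 4 lists of A and C and no peak in B or D. Red lines mark EEF1A1 at 2172.5 bp and EEF2 at 692 bp, both to the right of the median of 199 bp.

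The ribosomal protein genes held the other 14 of the 16 regions, and in none of these did the lists of A and C lie wholly above or below those of B and D in covered length. RPS6, the small-subunit protein that S6 kinase phosphorylates, had a single peak of 845 bp at chr9:19378772-19379616 (hg19, minus strand) with the same ends and a score of 3100 in all 8 lists. It lay between 14.0% and 32.6% of the window from the 5′ end. Of the 10872 regions with a peak in all 8 lists, 78.4% likewise had 1 peak with the same ends in each. Covered length in RPS6 was thus equal in C, A, D and B.

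RPL11, a large-subunit protein that binds MDM2 when ribosome assembly fails, had a peak of 736 bp at chr1:24021150-24021885 (hg19, plus strand) in C1, C2, A1, A2, D1, B1 and B2. It was missing from D2, which had no peak in this gene. B2 had a further peak of 331 bp at chr1:24022288-24022618, found in no other list. Covered length over the gene was 736 ± 0 bp in C, 736 ± 0 bp in A, 368 ± 520 bp in D and 902 ± 234 bp in B (SD, n = 2 each). The replicates of D and B differed from each other, and no pair stood apart from the next beyond that spread.

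RPL5, which forms a complex with RPL11 and 5S ribosomal RNA, held 4 regions. The most 5′ of them, at chr1:93297917-93299217 (hg19, plus strand), had the same outer ends in all 8 lists and was split by a gap in 7 of them. The gap was 494 and 22 bp wide in C1 and C2, 157 and 222 bp in A1 and A2, 96 and 135 bp in D1 and D2 and 163 bp in B1, and B2 had 1 unbroken peak of 1301 bp. The gap thus varied within pairs, with its widest and its narrowest value both in C. A peak of 203 bp at chr1:93301747-93301949 had the same ends in all 8 lists.

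The other peaks of RPL5 were not in every list. A short one of 135 bp, at chr1:93300336-93300470, was present in A1, A2 and B1 and missing from C1, C2, D1, D2 and B2. The one nearest the 3′ end, at chr1:93306108-93306565, covered 458 bp in 6 lists and 413 bp in C1, and was missing from C2. Covered length over the gene was 1423 and 1482 bp in C1 and C2, 1940 and 1875 bp in A1 and A2, 1866 and 1827 bp in D1 and D2 and 1934 and 1962 bp in B1 and B2. In the most 5′ region C1 covered 807 bp, the least of all lists, and C2 1279 bp, while C2 alone lacked the peak nearest the 3′ end. The lists of C thus fell short mostly in different regions. In covered length over the gene, both lists of C lay below the other 6 lists. Among single regions the same held in 1 of the 16 of these genes, the one nearest the 3′ end of RPL5, and in 0.562% of all regions, while no share over other whole genes was computed. Mean covered length fell by 455 bp in C relative to A. It fell by 394 bp in C relative to D. An exact test of 2 lists against 2 cannot pass 0.05, so this difference has no p-value.

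RPS3, a small-subunit protein that also acts in DNA repair, had the most varied peaks, in 7 regions with 29 of the 86 peaks. Only 1 region was in all 8 lists, at chr11:75116627-75117957 (hg19, plus strand). Its 5′ end was the same in every list and its 3′ end different in each, so that it covered 669 and 763 bp in C1 and C2, 584 and 1331 bp in A1 and A2, 540 and 403 bp in D1 and D2 and 564 and 732 bp in B1 and B2. The widest of these, in A2, also had the lowest score of the 8, 153.25. Of the 10781 regions with 1 peak in each list, 10.6% likewise shared the 5′ end but not the 3′ end, and 9.04% the reverse.

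In RPS3 D differed from the other pairs in a pair of neighbouring regions. The share of all regions in which D differs from every other list in this way was not computed. The region at chr11:75115716-75116344 had a peak of 629 and 559 bp in C1 and C2, 449 and 395 bp in A1 and A2 and 396 and 395 bp in B1 and B2, each with a score of 3100, but none in D1 or D2. Upstream of it, the region at chr11:75114333-75114989 had a peak of 478 and 657 bp in D1 and D2, with a score of 3100 in both, and none in C, A or B. D is AS-treated WT input by the record and AS-treated K512R by the names. Within the gene, D thus had the more 5′ of these peaks and the other pairs the more 3′ one. The exact permutation test of A and C against B and D gave p = 0.429 in the 5′ one (adjusted 1) and p = 0.0857 in the 3′ one (adjusted 0.689, n = 4 each), but it pools D with B and does not test whether D stands apart.

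The 4 other RPS3 regions were shared unevenly by replicates. A region at chr11:75113396-75114081 was in 7 lists and missing from A2, and it was wider in C1 (673 bp), C2 (686 bp) and D2 (598 bp) than in A1, D1, B1 and B2 (294 bp each). A peak of 182 bp at chr11:75111448-75111629 was in C1 and D2, and one of 133 bp at chr11:75111736-75111868 in D1 alone. At the 3′ end of the window, a region at chr11:75132771-75133345 had peaks in C1, A2 and D2 with scores of 39.34, 20.54 and 49.18, between the 9.23 and 26.6 percentiles of their lists, the weakest of all 86 peaks. Covered length over RPS3 was 2356 ± 491 bp in C, 1804 ± 674 bp in A, 1920 ± 671 bp in D and 1338 ± 118 bp in B (SD, n = 2 each). By list it was 2703 and 2008 bp in C1 and C2, 1327 and 2280 bp in A1 and A2, 1445 and 2394 bp in D1 and D2 and 1254 and 1421 bp in B1 and B2. Both lists of D lay above both lists of B, while A overlapped B, C overlapped D and C overlapped A. Among single regions with a peak in D or B, D lay above B in this way in 1 of the 14 of these genes, the one only in D, and in 5.18% of all such regions. RefSeq places SNORD15A and SNORD15B inside RPS3, SNORD21 and SNORA66 inside RPL5 and SNORD37 inside EEF2, and RPL5 overlaps DIPK1A. Which peaks lie over these genes was not analysed here. Small nucleolar RNA genes of this kind also lie inside genes with no peak, 4 in RPL3, 4 in RPL4 and 2 in RPS2, with 0 in RPLP0.

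**Figure D3:**
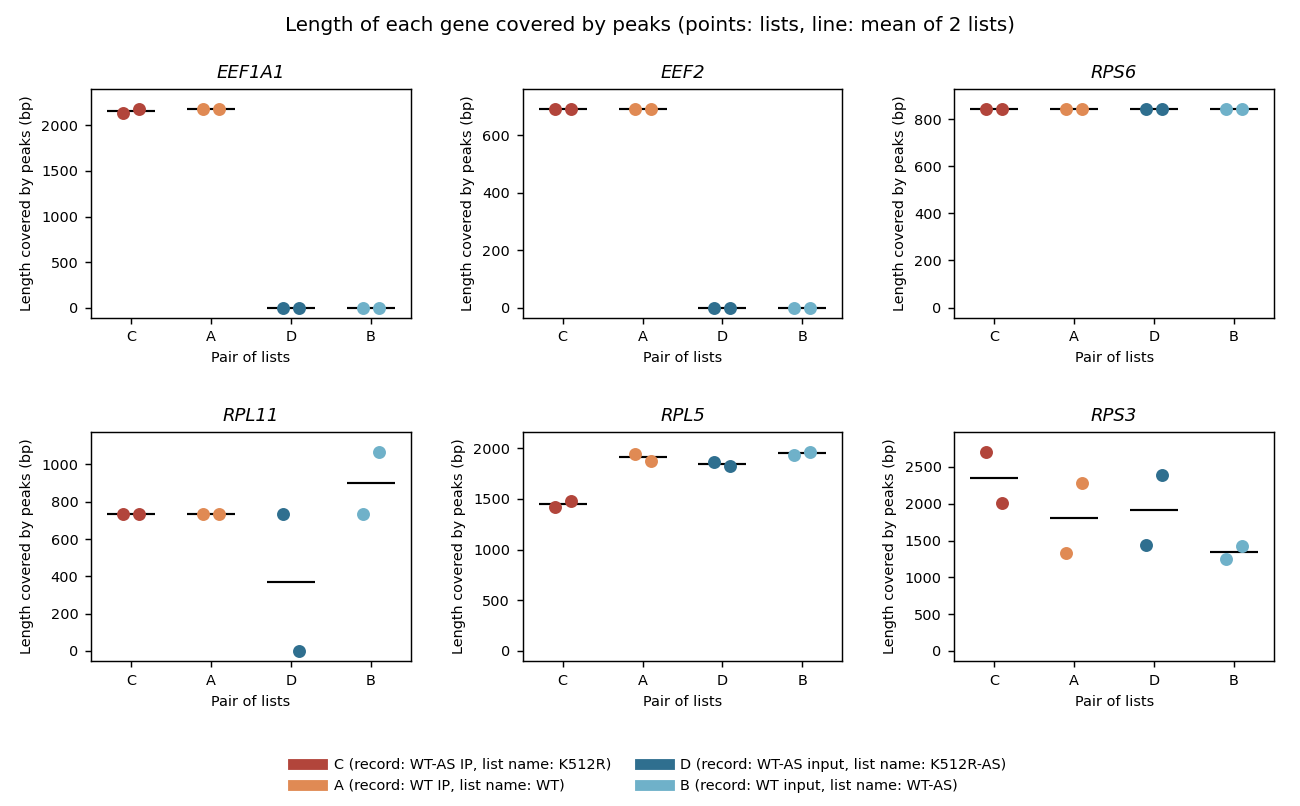
Length covered by peaks in bp (vertical axis) in the 6 genes with peaks, by pair of lists (horizontal axis). Points are lists and the line is the mean of 2. EEF1A1 and EEF2 sit at 0 in D and B, RPS6 is at 845 bp throughout, RPL5 is lowest in C, and the replicates of RPS3 and of RPL11 in D and B lie apart.

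In the 4 comparisons of pairs, a region counted as present in 1 pair alone when 2 of 2 lists of that pair and 0 of 2 of the other held a peak in it. The share of called regions is given over all regions with a peak in at least 1 of the 4 lists compared. For A with B, which is IP with input in untreated WT cells by the record and no AS with AS in WT cells by the names, 2 of 13 member regions were only in A (EEF1A1 and EEF2), against 11.4% of all regions. None was only in B, against 9.68% of all regions. Without peaks below the median score of their list, EEF2 alone remained, since the EEF1A1 peak of A2 scored below it.

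For C with D, which is IP with input under AS by the record and no AS with AS in K512R cells by the names, 3 of 14 member regions were only in C, against 16% of all regions. They were EEF1A1, EEF2 and the 3′ one of the neighbouring RPS3 regions. The 5′ one of these was only in D, 1 of 14, against 6.94% of all regions. For C with A, which is AS with no AS in WT IP by the record and K512R with WT without AS by the names, 0 of 13 member regions were only in C, against 5.88% of all regions. The RPL5 region of 135 bp was only in A, 1 of 13, against 1.92% of all regions.

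For D with B, which is AS with no AS in WT input by the record and K512R with WT under AS by the names, 1 of 14 member regions was only in D and 1 only in B, against 3.95% and 5.02% of all regions. These were the 5′ and the 3′ one of the neighbouring RPS3 regions. With 13 or 14 regions a comparison, each count differed by at most 1.26 regions from what the share over all regions gives, and none is read as particular to these genes. Leaving out 1 list moved several of these counts by over 1.5 times. In A with B, 1 region was only in B without A1 or without B1. In C with D, 2 were only in D without C1 or without D2. In C with A, 1 was only in C without C2 or without A1, and 2 were only in A without C1. In D with B, 3 were only in D without D1 and 2 without D2, and 2 were only in B without D1, B1 or B2. Replicates shared 9 of 12 member regions in C, 10 of 12 in A, 7 of 11 in D and 8 of 10 in B. The shares were 75% in C against 74.0% of all regions, 83.3% in A against 72.9%, 63.6% in D against 73.5% and 80% in B against 74.3%.

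Summed over the 10 genes, peaks covered 8534 and 7948 bp in C1 and C2, 7725 and 8613 bp in A1 and A2, 4892 and 5066 bp in D1 and D2 and 4769 and 5295 bp in B1 and B2. The lists of A and C lay above those of B and D with no overlap. The same held for the whole lists, which numbered 21979 to 25111 peaks in A and C and 19953 to 21160 in B and D, and covered 8.33 to 9.91 Mb in A and C and 6.70 to 7.15 Mb in B and D. With lists of equal length (19953 peaks each), the mean sum was higher by 2860 bp in A than in B (3137 bp with all peaks). It was higher by 3262 bp in C than in D, as with all peaks. The part of list length was not tested beyond this. EEF1A1 and EEF2 together made up 2827 and 2877 bp of the sums in C1 and C2 and 2877 bp of each sum in A, and neither added to the sums in D and B. The number of peaks in the 10 genes was 13 and 10 in C1 and C2, 12 in both lists of A, 10 in both lists of D and 10 and 9 in B1 and B2, so the lists of A and C overlapped those of B and D in number.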

How the data were processed

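For 8 samples the authors deposited 1 peak list each, giving the place, strand and score of every peak, in a unit that is not stated. The submitters' processing notes name cutadapt 1.9.3, HISAT2 2.0.4 and hg19, without order or settings. Peak names begin with MACS, per the files themselves. Nothing used here states the caller's version, its control library, its threshold or any pooling. Samples were grouped by their titles, and 6 of the 8 list names give another condition. No list was used for the 8 samples titled K512R.

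Peak starts were turned to count from 1. Gene windows came from the rule that defined the group, and the members and lists were chosen with earlier results of these data known. Covered length is the union of a list's peaks in the window or region. Every region of the genome was tested by exact 2-sided permutation (70 orders) with Benjamini-Hochberg adjustment, after a check on simulated data. The 10 genes and all their regions were named. Other ribosomal protein genes were not analysed here, since no hg19 annotation was used. Depth is unknown, so precision rests on 2 lists a pair. Alternatives were lists of equal length, a score at or above the median, stricter overlap, a looser presence rule, peaks inside the window, lists left out and a replicate block. The software was Python 3.11.15 with scipy 1.17.1, numpy 2.4.6, pandas 2.3.3 and, for plots, matplotlib 3.10.9.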

Additional observations from a re-analysis of the deposited data

Results flagged for a closer look

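The RPS3 region at chr11:75115716-75116344 (hg19, plus strand) moved in opposite directions in the comparisons of C with A and of D with B. Its covered length was higher by 172 bp in C than in A, with every list of C above every list of A, and fell by 395.5 bp in D relative to B, with both lists of D at 0. By the record these are the effects of AS in IP and in input, and by the names those of K512R without and with AS. Both lists of C lay above both of A in 2 of the 13 member regions with a peak in either pair, and in 8.22% of all such regions. The other of the 2 was the RPS3 region at chr11:75113396-75114081. Over all 36802 regions, 0.576% had C above A and D below B in every list, and 0.215% the reverse. The difference between the 2 effects was not tested.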

How the results depend on the processing

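The counts of regions found in 1 pair only are small, and 1 region can move them by over 1.5 times. With peaks at or above the median score of their list, regions only in A against B numbered 1 in place of 2, and the covered length over the 10 genes was higher by 1102 bp in A than in B (3137 bp with all peaks) and by 1832 bp in C than in A (72 bp with all peaks). In A2 the EEF1A1 peak and 2 RPS3 peaks fall below that score, and covered length in RPS3, whose lists overlap, was then -476.5 bp (A minus B) in place of 466 bp. With presence in at least 1 of 2 lists, the counts were 1 only in B against A, 2 only in D against C, 1 only in C against A, 4 only in D against B and 3 only in B against D. Leaving out 1 list at a time gave 2 to 3 regions only in A and 0 to 1 only in B, 3 to 4 only in C and 1 to 2 only in D (C with D), 0 to 1 only in C and 1 to 2 only in A (C with A), and 1 to 3 only in D and 1 to 2 only in B (D with B). The covered length over the 10 genes then differed by 2693 to 3581 bp (A minus B), 2969 to 3555 bp (C minus D), -372 to 516 bp (C minus A) and -316 to 210 bp (D minus B). Lists of equal length and peaks wholly inside the window moved none of these by more than the spread of replicates, and an overlap of at least 0.5 of the shorter peak left every count within 1.5 times.

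With the replicate number as a block, permuting between lists of the same number, EEF1A1 and EEF2 had an exact permutation p = 0.0556. This is the smallest that this exact permutation can give and lies above 0.05, so no region could pass. That 0 regions passed was thus fixed in advance and says nothing on the result without the block. The smallest adjusted p in the block was 0.578. Region by region, same-numbered lists did not deviate together (r from 0.00645 to 0.0203 over all regions, 6 pairings). Such an r cannot show a shift of a whole list. In every pair the second list held more peaks than the first (24183 and 25111 in C, 21979 and 22083 in A, 19953 and 20971 in D, 20309 and 21160 in B). Whether same-numbered lists share a batch was not tested. Leaving out a list also gave 0 regions past the threshold, but there too a region could not pass by its own difference alone. A pyrimidine run that could begin within 5 bases of the start was found in 21.1% of promoters, and a run of at least 6 after the first C in 2.10%, against 4.07% for the rule used.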
